A study of Mus musculus with 56 samples.

Results

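A list of 30 genes of cholesterol and fatty acid synthesis was followed through bulk RNA sequencing of Fmr1 knockout (KO) mouse tissues and of N2a cells, a mouse neuroblastoma line. The genes were taken by name, 30 of 23259 genes in the gene tables, and all 30 were found in every table. The list holds 7 enzymes of the mevalonate pathway (Acat2, Hmgcs1, Mvk, Pmvk, Mvd, Idi1 and Fdps) and 11 enzymes that turn farnesyl diphosphate into cholesterol (Fdft1, Sqle, Lss, Cyp51, Tm7sf2, Msmo1, Nsdhl, Hsd17b7, Ebp, Sc5d and Dhcr7). It also holds 6 genes of sterol sensing and transport (Srebf1, Srebf2, Scap, Insig1, Insig2 and Stard4) and 6 genes of fatty acid and glycerolipid synthesis (Acaca, Fasn, Elovl6, Scd1, Scd2 and Lpin1).

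The study held 56 samples in 19 groups. Wild-type (WT) and Fmr1 KO mice gave 3 samples each of 3 brain regions (cortex, hippocampus and cerebellum) and of liver, muscle and testis; age, sex and strain are not given in the labels used here. In a first N2a experiment, Fmr1 was targeted by a small interfering RNA (siRNA; siFmr1, 3 samples), and 2 control samples received a non-targeting one (siNT). In a co-transfection experiment with 3 samples per group, N2a cells received an siRNA together with a plasmid. The plasmid pcDNA went with siNT, with siFmr1 or with siMbnl1; a plasmid for nuclear MBNL1 carrying a FLAG tag (nMBNL1) went with siFmr1, and a plasmid for cytosolic MBNL1, also FLAG-tagged (cMBNL1), with siMbnl1. The non-targeting siRNA and the pcDNA plasmid are the controls, so every group of that experiment carried both an siRNA and a plasmid. Fmr1 encodes the RNA-binding protein FMRP, and Mbnl1 encodes a muscleblind-like RNA-binding protein known as a splicing regulator. The labels do not say whether samples of a group came from separate animals or cultures, so the p-values measure the spread between these samples, which may in part be technical.

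Cholesterol is built from acetyl-CoA through mevalonate, farnesyl diphosphate, squalene and lanosterol. When membranes of the endoplasmic reticulum hold little sterol, SCAP escorts the SREBP transcription factors, encoded by Srebf1 and Srebf2, to the Golgi, where they are cut and released to the nucleus. SREBP then raises transcription of most genes of the pathway, while the INSIG proteins hold SCAP back when sterol is plentiful; liver makes much of the body's cholesterol, and brain makes its own because lipoproteins do not cross the blood-brain barrier.

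Promoter sequences of 24 of the 30 genes were matched in the RefSeq promoter table, as 32 windows of GRCm38.p6 (250 bases before to 50 after each start), since some genes have several starts. Each window was searched on both strands for the sterol regulatory element form TCACNCCAC, the SREBP-binding site, for CCAAT, the site of its co-factor NF-Y, for GGGCGG, the core of an Sp1 site, and for the E-box CACGTG. TCACNCCAC was in 1 of the 32 windows (3.12%; Hmgcs1), against 1.24% of the 32851 windows of all genes. CCAAT was in 20 (62.5%), against 37.4% of all windows, GGGCGG in 23 (71.9%), against 35.7%, and CACGTG in 6 (18.8%), against 7.15%. A match describes letters only. The 250 bases before the start are shown for 4 genes that were lower than siNT in the co-transfection groups, with the sterol element and CCAAT boxes of either strand in capitals. They were taken from the 15 genes called lower in all 4 comparisons with siNT pcDNA, where a window lay outside the annotated gene. For Insig2 the first window is shown, while its windows 2 and 3 held GGGCGG but no CCAAT. Which start the cells use was not tested. Nsdhl and Sc5d are sterol enzymes, Hmgcs1 is the mevalonate gene with the sterol element, and Insig2 is a regulator; the windows lie at chrX:72918271-72918520 (+), chr9:42264301-42264550 (-), chr13:119690101-119690350 (+) and chr1:121332590-121332839 (-), in that order.
Nsdhl: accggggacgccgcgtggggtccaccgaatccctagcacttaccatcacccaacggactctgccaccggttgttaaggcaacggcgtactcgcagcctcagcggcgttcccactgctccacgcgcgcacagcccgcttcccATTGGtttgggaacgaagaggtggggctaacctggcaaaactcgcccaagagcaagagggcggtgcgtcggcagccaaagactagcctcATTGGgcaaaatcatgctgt
Sc5d: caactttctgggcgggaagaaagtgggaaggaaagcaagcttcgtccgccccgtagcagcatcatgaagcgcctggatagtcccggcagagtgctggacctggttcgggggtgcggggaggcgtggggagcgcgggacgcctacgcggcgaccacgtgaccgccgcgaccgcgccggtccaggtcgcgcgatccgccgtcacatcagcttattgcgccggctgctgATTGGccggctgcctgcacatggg
Hmgcs1: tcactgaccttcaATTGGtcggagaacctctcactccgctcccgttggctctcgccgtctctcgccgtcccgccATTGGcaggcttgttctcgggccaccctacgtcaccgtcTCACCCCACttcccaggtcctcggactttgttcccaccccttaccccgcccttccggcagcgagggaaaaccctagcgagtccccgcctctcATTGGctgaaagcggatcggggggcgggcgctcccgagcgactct
Insig2: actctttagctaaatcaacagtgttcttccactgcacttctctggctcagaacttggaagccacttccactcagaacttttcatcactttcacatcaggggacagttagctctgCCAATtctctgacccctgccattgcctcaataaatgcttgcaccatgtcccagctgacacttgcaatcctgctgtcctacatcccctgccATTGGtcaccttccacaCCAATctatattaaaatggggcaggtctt

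Libraries of the counted experiments held about 13230800 to 41384700 reads assigned to genes, the deepest being those of brain (26264400 and above). The co-transfection table holds normalized counts that sum to about 31955000 to 33273200 per sample, so its sequencing depth is unknown. All 5 defining markers of each labelled tissue passed the filter on low counts in that tissue. Fmr1 was lower in every KO sample than in every WT sample of its tissue, the narrowest gap being in muscle (8.06 to 10.3 against 11.99 to 17.6 CPM, read counts scaled to a common library size). In the co-transfection samples Fmr1 fell by 2.37 (log2) with siFmr1 and pcDNA, and Mbnl1 fell by 1.56 with siMbnl1 and pcDNA. With an MBNL1 plasmid, Mbnl1 lay above siNT with pcDNA, which averaged 4395.5 normalized counts. It averaged 12139.5 (log2 1.47) with siFmr1 and nMBNL1, and 19761.7 (log2 2.16) with siMbnl1 and cMBNL1. The siNT pcDNA samples varied more than the others: the median SD of a gene's log2 value was 0.236, against 0.0963 to 0.113 in the other 4 groups, and 0.168 against 0.0710 to 0.0968 over the 30 genes.

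In WT tissue the 30 genes were most abundant in liver. Their TPM, a transcript level corrected for gene length and library size, summed to 4413 in liver, 2665 in cortex, 2432 in cerebellum, 2398 in hippocampus, 1192 in testis and 458 in muscle, and to 3104 in N2a cells with siNT. The highest of the 6 tissues was liver for 18 genes, cortex for 4, cerebellum for 3, testis for 3 and hippocampus for 2, while muscle was lowest for 19 and testis for 9. For 21 of the 30 genes the lowest sample of the highest tissue lay above every sample of the next one. No share over all genes is given here for these counts, so they describe the 30 genes alone. TPM were computed by the authors for each table, so levels are compared across tables without a test.

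Sc5d, a desaturase of the late sterol steps, averaged 428 ± 70.9 TPM in WT liver (SD, n = 3), and the next tissue was cerebellum at 90.5. Srebf1, the gene of the SREBP form known for fatty acid genes, averaged 120 ± 28.5 TPM in liver, with hippocampus next at 31.3. Srebf2, the gene of the form known for cholesterol genes, averaged 110 ± 8.42 TPM in cortex and 109 ± 2.62 in hippocampus, 2 tissues that did not differ beyond their spread, and 19.0 ± 1.83 in liver. Liver was thus the highest tissue for Srebf1 and lay far below cortex for Srebf2.

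The stearoyl-CoA desaturases, which make monounsaturated fatty acids, stood at opposite ends. Scd1 averaged 1242 ± 735 TPM in liver and 6.66 ± 1.497 in testis, while Scd2 averaged 871 ± 18.5 TPM in cerebellum and 1.43 ± 0.476 in liver. The genes are close copies, so how reads were split between them is uncertain. Testis had its own leading genes: squalene synthase Fdft1 averaged 288 ± 4.87 TPM there and 43.4 to 91.9 in the other tissues, and Lpin1, a phosphatidate phosphatase, averaged 240 ± 6.86 TPM there, with muscle next at 101 ± 20.2. Insig2 was the most even of the 30 across tissues, from 50.9 ± 2.55 TPM in testis to 85.7 ± 18.4 in liver, a ratio of 1.68. In N2a cells with siNT, farnesyl diphosphate synthase Fdps was the highest of the 30 at 695 ± 99.2 TPM (SD, n = 2) and Scd1 the lowest at 5.99 ± 2.34.

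**Figure D1:**
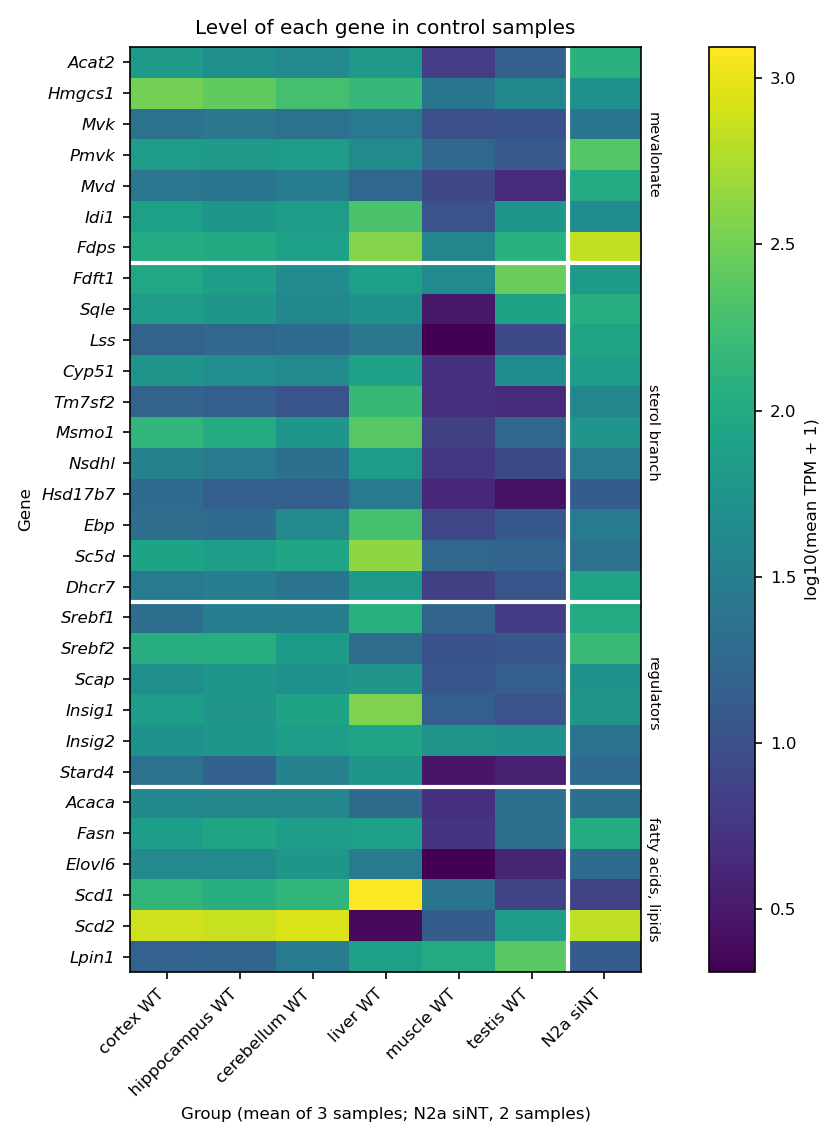
log10(mean TPM + 1) of each of the 30 genes in the 6 wild-type tissues (3 samples each) and in N2a cells with siNT (2 samples), as a colour scale with genes in rows grouped by role. Liver holds the highest value for 18 of the 30 genes among the tissues, and Scd1 and Scd2 are reversed between liver and brain.

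Brain, liver, muscle and testis were then compared between KO and WT, with edgeR's quasi-likelihood test on the counts, Benjamini-Hochberg adjustment over all genes tested and a threshold of 0.05. Log2 fold changes are given with their standard errors, KO relative to WT. All 30 genes passed the filter on low counts in every tissue. In bulk tissue, fewer cells of a type and less RNA per cell cannot be told apart.

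In cortex, none of the 30 genes passed the threshold, where 0.0203% of 14802 tested genes did. At an unadjusted p under 0.05 there were 6 of the 30 (2 higher in KO and 4 lower), against 21% of all genes, and DESeq2 called 2, Fasn and Scap, against 9.47% of the genes it adjusted. Fasn, the fatty acid synthase, was at 229, 225 and 213 CPM in KO and 309, 287 and 250.5 in WT. Scap, the sterol sensor that escorts SREBP, was at 64.7, 62.5 and 59.8 CPM in KO and 83.0, 74.0 and 69.4 in WT. For both genes every KO sample lay below every WT sample. The log2 fold change was -0.34 ± 0.08 for Fasn (adjusted p = 0.0786) and -0.28 ± 0.07 for Scap (adjusted p = 0.103). Without WT sample 3, edgeR called 3 genes lower: Fasn (adjusted p = 0.0208), Scap (0.0335) and Srebf2 (0.0379). The median over the 30 genes was -0.08, against 0.00 over all genes.

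In hippocampus none of the 30 passed, against 0.209% of 14843 genes; 8 had an unadjusted p under 0.05 (4 higher and 4 lower), against 12.5% of all genes, and DESeq2 called Msmo1 alone, against 2.53% of its genes. Msmo1, a sterol demethylation enzyme, was at 75.5, 75.6 and 71.6 CPM in KO and 68.1, 62.7 and 61.8 in WT. Idi1, the isopentenyl diphosphate isomerase, was at 75.9, 68.9 and 66.6 CPM in KO and 61.8, 59.6 and 59.9 in WT. All KO samples exceeded all WT samples for both, by 0.21 ± 0.05 for Msmo1 (log2, edgeR adjusted p = 0.207) and 0.22 ± 0.06 for Idi1 (adjusted p = 0.213). The summed level of 9 oligodendrocyte markers, cells with a large demand for cholesterol in myelin, was 4686 to 4841 CPM in hippocampus KO and 5698 to 6094 in WT, with all 9 below WT in every KO sample and 4 called lower; their part in the values of the 30 genes was not tested.

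In cerebellum none passed, against 0.226% of 14627 genes; 4 had an unadjusted p under 0.05 (2 higher and 2 lower), against 8.72% of all genes, and DESeq2 called none, against 0.67% of its genes. Stard4, a cytosolic sterol carrier, was at 41.8, 40.2 and 40.6 CPM in KO and 34.5, 34.6 and 36.7 in WT, without overlap (log2 0.21 ± 0.06, edgeR adjusted p = 0.255). Fasn was at 224, 244 and 234 CPM in KO and 270.2, 274 and 242 in WT, and the ranges overlapped (log2 -0.16 ± 0.06, adjusted p = 0.387). Without WT sample 3, which held the highest WT value of Stard4 and the lowest of Fasn, both were called (adjusted p = 0.0354 and 0.0127).

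An interaction term in a fit of all 18 brain samples asked for a difference in KO effect from region to region. The labels do not say whether the regions came from the same mice, and the fit took all 18 samples as independent. None of the 30 genes passed for cortex against hippocampus (0% of 15504 genes passed), for cortex against cerebellum (0%) or for hippocampus against cerebellum (0.00645%). At an unadjusted p under 0.05 there were 3, 4 and 1 of the 30, against 10.1%, 15.2% and 5.31% of all genes. Leaving out cortex WT sample 3 gave 2 calls for cortex against cerebellum, Scap (-0.31, edgeR adjusted p = 0.0484) and Stard4 (-0.38, adjusted p = 0.0445), both lower in cortex. With all samples Scap differed by -0.25 ± 0.09 (adjusted p = 0.210).

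**Figure D2:**
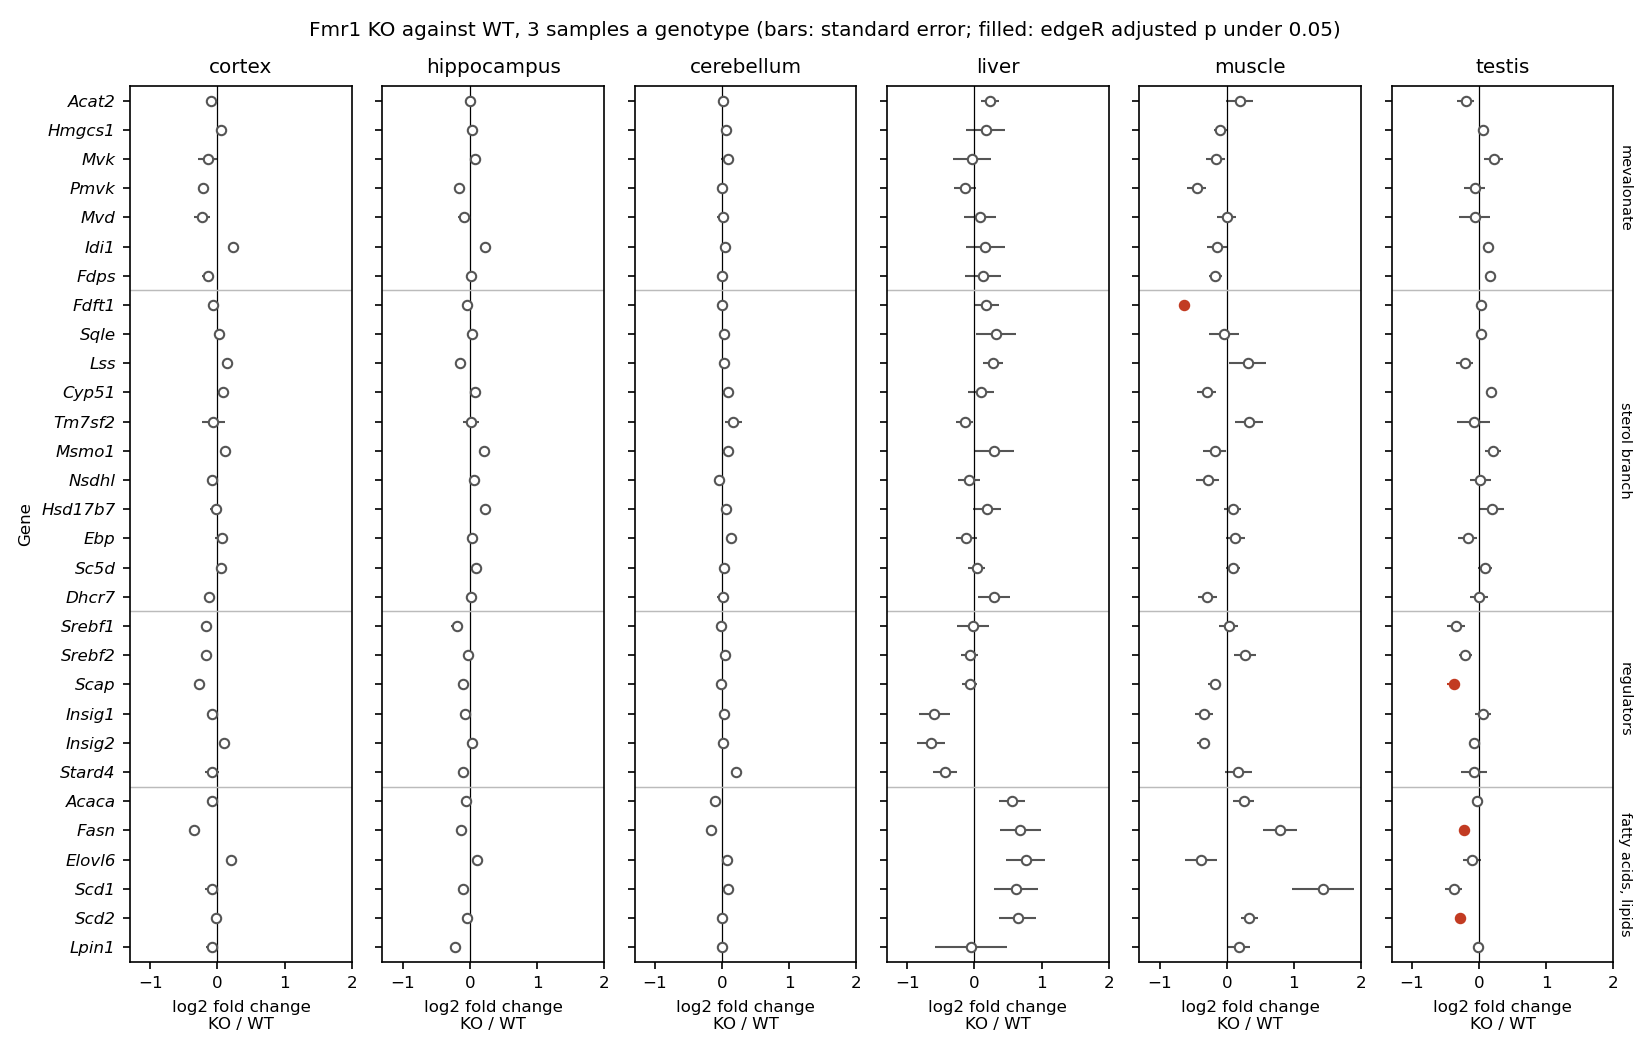
Log2 fold change of each of the 30 genes, KO against WT, in 1 panel for each of the 6 tissues, with points for the estimate, bars for the standard error and filled points for edgeR adjusted p under 0.05. The filled points are Fdft1 in muscle and Scap, Fasn and Scd2 in testis, all below 0, and estimates spread more in liver and muscle than in brain.

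In liver none of the 30 passed, against 0.411% of 11928 genes, and DESeq2 called none, against 2.26% of its genes; 6 had an unadjusted p under 0.05, against 11.4% of all genes. All 6 sterol regulators had fold changes below 0 (median -0.26), and 5 of the 6 fatty acid genes had fold changes above 0 (median 0.63), while the median over all genes was 0.00. Insig2, which retains SCAP in the endoplasmic reticulum, was at 79.6, 102 and 71.1 CPM in KO and 173, 110.05 and 111 in WT, without overlap (log2 -0.64 ± 0.21, edgeR adjusted p = 0.275). Acaca, the acetyl-CoA carboxylase that makes malonyl-CoA, was at 161, 125 and 179 CPM in KO and 79.5, 111 and 126 in WT, and 1 KO sample lay just below the highest WT sample (log2 0.56 ± 0.19, adjusted p = 0.317).

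Liver samples of 1 genotype varied widely for the fatty acid genes. Scd1 was at 6121, 4718 and 6666 CPM in KO and 2589.8, 6220.3 and 2601 in WT, so that WT sample 2 lay among the KO samples and the other WT samples lay below all of them. Without WT sample 2, Scd1 was called higher (log2 1.1596, edgeR adjusted p = 0.0261), and without WT sample 1, Stard4 was called lower (-0.62, adjusted p = 0.0367).

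In muscle 1 of the 30 genes passed, Fdft1, against 4.04% of 12688 genes in either direction and 1.03% lower. Fdft1, which condenses farnesyl diphosphate into squalene, was at 52.8, 50.7 and 52.0 CPM in KO and 85.3, 78.9 and 76.7 in WT. The samples of each genotype lay close together and far from those of the other. Fdft1 fell by 0.63 ± 0.09 on the log2 scale (edgeR adjusted p = 0.0135), and DESeq2 also called it, with Insig2 and Fasn, against 8.56% of its genes. At an unadjusted p under 0.05 there were 7 of the 30, against 25.9% of all genes. Its call was lost without KO sample 1 (adjusted p = 0.0586) or KO sample 3 (0.0967), at fold changes of -0.64 and -0.63. Fdft1 lies at chr14:63145150-63179578 on the minus strand (GRCm38) and overlaps Ctsb on the other strand, and whether reads were counted by strand is not stated.

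Several fatty acid genes were higher in muscle KO samples without passing the threshold. Fasn was at 44.3, 36.9 and 79.6 CPM in KO and 25.3, 33.2 and 34.5 in WT (log2 0.79 ± 0.26, edgeR adjusted p = 0.102). Scd1 was at 126, 93.3 and 379 CPM in KO and 52.5, 92.3 and 76.2 in WT (log2 1.44 ± 0.46, adjusted p = 0.0968). All KO samples lay above all WT samples for both, and KO sample 3 stood far above the others. The summed level of 8 adipocyte markers in the same samples was 422 to 635 CPM in KO and 299 to 408 in WT. All 8 adipocyte markers passed the filter on low counts, 4 were higher in every KO sample, and none was called. The share of all genes higher in every muscle KO sample is not given here. At an unadjusted p under 0.05 (edgeR) there were 25.9% of all genes in either direction. Their part in the values of Fasn and Scd1 was not tested. Insig2 lay lower, at 67.5, 75.6 and 67.8 CPM in KO and 94.999, 90.5 and 82.0 in WT, without overlap (log2 -0.34 ± 0.10, adjusted p = 0.0722).

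In testis 3 of the 30 genes passed, all lower in KO, against 4.27% of 15465 genes in either direction and 2.28% lower. Scap was at 26.9, 22.3 and 21.98 CPM in KO and 33.9, 30.3 and 28.0 in WT, Fasn was at 97.9, 98.7 and 99.9 in KO and 121, 120.01 and 106 in WT, and both were without overlap. Scd2 was at 169.96, 189 and 168 CPM in KO and 245, 218 and 178 in WT, where WT sample 3 lay within the KO range. The log2 fold changes were -0.38 ± 0.10 for Scap (edgeR adjusted p = 0.0163), -0.23 ± 0.07 for Fasn (adjusted p = 0.0397) and -0.29 ± 0.07 for Scd2 (adjusted p = 0.0169). DESeq2 called Scap and Fasn, against 5.26% of its genes, but gave Scd2 an adjusted p of 0.239.

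All 6 fatty acid genes had testis fold changes below 0 (median -0.17), and 8 of the 30 genes had an unadjusted p under 0.05, against 18.3% of all genes. The share of all genes with a testis fold change below 0 is not given here. The 3 calls were lost without KO sample 3 (adjusted p = 0.130 for Scap, 0.129 for Fasn and 0.102 for Scd2), WT sample 1 (0.126, 0.148 and 0.226) or WT sample 2 (0.0725, 0.248 and 0.102). Without KO sample 2, Scap (0.132) and Fasn (0.161) were lost, and without WT sample 3, Scd1 was called lower as well (log2 -0.54, adjusted p = 0.00582). The summed level of 6 Leydig cell markers was 1089 to 1125 CPM in KO and 1155 to 1524 in WT, with 4 called lower, and that of 5 Sertoli cell markers was 938 to 1017 in KO and 1048 to 1298 in WT, with none called; all of these markers passed the filter, and their part in the values of Scap, Fasn and Scd2 was not tested.

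**Figure D3:**
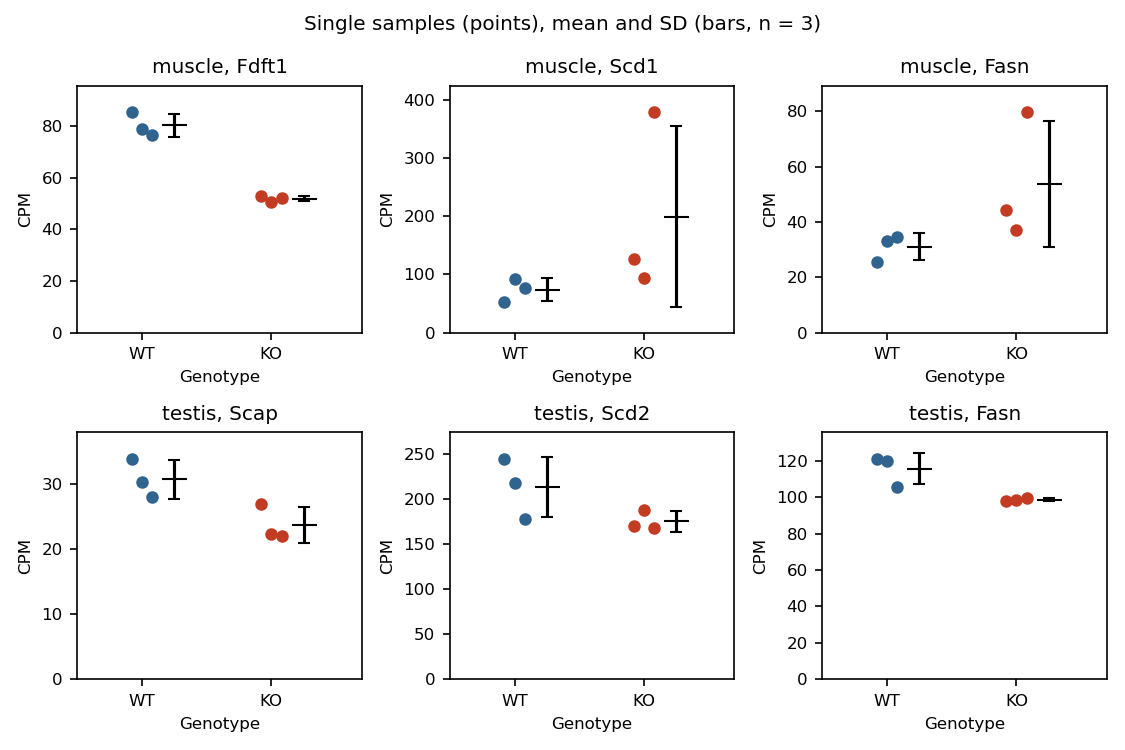
CPM of single WT and KO samples (points) with the group mean and SD (bars, n = 3), on axes from 0, for Fdft1, Scd1 and Fasn in muscle and Scap, Scd2 and Fasn in testis. Fdft1 in muscle lies at 50.7 to 52.8 in KO and 76.7 to 85.3 in WT, 1 KO sample stands above the others for Scd1 and Fasn in muscle, and Scd2 in testis overlaps.

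The authors' deposited tables, whose fold changes come from the same counts, listed an adjusted p under 0.05 for 5 of the 30 genes in cortex (Pmvk, Idi1, Scap, Fasn and Elovl6), 1 in hippocampus (Msmo1), 3 in muscle (Fdft1, Insig2 and Fasn) and 2 of the 25 with an adjusted p in testis (Scap and Fasn). The authors' deposited tables listed none in cerebellum, liver or the first N2a experiment.

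In the first N2a experiment none of the 30 genes passed, where 0% of 12187 genes passed, none had an unadjusted p under 0.05 (0.386% of all genes did) and DESeq2 called none (0% of its genes). The fold changes of 24 of the 30 genes lay below 0, among them all 7 mevalonate genes (median -0.65), and 3 genes were lower in every siFmr1 sample than in every siNT sample, against 4.19% of all genes. The share of all genes with a fold change below 0 is not given here, so the 24 have no background. Tm7sf2, a sterol reductase, was at 19.6, 12.2 and 23.4 CPM with siFmr1 and 28.0 and 43.0 with siNT, and Fdps was at 279, 199.7 and 381 with siFmr1 and 357 and 747 with siNT. The siNT samples lay far apart, and for Fdps siFmr1 sample 3 lay between them. The log2 fold changes were -0.95 ± 0.40 and -0.95 ± 0.44 (edgeR adjusted p = 0.9999 for both). The biological coefficient of variation that edgeR estimated here came to 39.9%, while the tissues had 5.99% to 18.5%.

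The co-transfection experiment was tested with limma on log2(normalized count + 1), with the 5 groups in 1 fit and adjustment over 16242 genes; its fold changes are on that scale. With siFmr1 and pcDNA, 18 of the 30 genes differed from siNT and pcDNA, 16 lower and 2 higher, against 37% of all genes in either direction, 17.5% lower and 19.5% higher. With siMbnl1 and pcDNA, 21 of the 30 were lower and none was higher, against 32.8% of all genes in either direction and 15.8% lower. The medians over the 30 genes were -0.30 with siFmr1 and -0.41 with siMbnl1, and over all genes 0.03 and 0.01. Both comparisons use the same siNT pcDNA samples, so the likeness of their values is not a separate result. Leaving out any 1 sample gave 17 to 19 calls with siFmr1 and 20 to 24 with siMbnl1, the siNT pcDNA samples included. A fit of only the 2 groups compared, which takes the spread from those 6 samples alone, gave 15 and 16 calls; Fdps lost its call with siFmr1 there (adjusted p = 0.0692).

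Among the mevalonate genes, 4 of 7 fell and 2 rose with siFmr1, and 3 of 7 fell with siMbnl1. Idi1 was at 7060.2, 5782 and 5776 normalized counts with siNT, 2858, 2858 and 3124 with siFmr1 and 5002, 5244 and 4749.9 with siMbnl1. Acat2, the acetyl-CoA acetyltransferase that opens the pathway, was at 4122, 3881 and 3849 with siNT, 2732, 2662 and 2709 with siFmr1 and 3192, 3307 and 3251 with siMbnl1. Both were highest in all siNT samples and lowest in all siFmr1 samples, with siMbnl1 between them. Idi1 fell by 1.07 ± 0.08 (log2) with siFmr1 (adjusted p = 1.01e-07) and by 0.31 ± 0.08 with siMbnl1 (adjusted p = 0.00568); Acat2 fell by 0.55 ± 0.06 with siFmr1 (adjusted p = 3.52e-06) and by 0.28 ± 0.06 with siMbnl1 (adjusted p = 0.00157). Both siMbnl1 calls were lost in the fit of only the 2 groups compared (limma adjusted p = 0.0841 for Idi1 and 0.0534 for Acat2).

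The genes that rose with siFmr1 encode consecutive kinases of the pathway, the mevalonate and phosphomevalonate kinases. Pmvk was at 2552, 2065 and 3062 normalized counts with siNT, 3649, 3605 and 3617 with siFmr1 and 2711, 2602 and 2925 with siMbnl1. Mvk, named after its values were seen, was at 534, 497 and 625 with siNT, 665, 677 and 674 with siFmr1 and 525, 569 and 545 with siMbnl1. The siFmr1 samples lay above both other groups for each gene, and the siNT and siMbnl1 samples overlapped. Pmvk rose by 0.52 ± 0.11 (log2, limma adjusted p = 0.00182) and Mvk by 0.29 ± 0.09 (adjusted p = 0.0169). The Mvk call was lost without siFmr1 pcDNA sample 2 (adjusted p = 0.0505) or siNT pcDNA sample 2 (0.0593), and in the fit of only the 2 groups compared (0.102).

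Of the 11 sterol enzymes, 8 fell with siFmr1 and 9 with siMbnl1, and none rose with either. Nsdhl, a sterol dehydrogenase on the X chromosome (chrX:72918557-72958514), was at 1661, 1399 and 1663 normalized counts with siNT, 1006, 1089.8 and 1019 with siFmr1 and 852, 782 and 882 with siMbnl1. Sc5d (chr9:42251595-42264256) was at 2213, 2391 and 2007 with siNT, 1149.9, 1111 and 1296 with siFmr1 and 1289, 1405 and 1302 with siMbnl1. Every knockdown sample lay below every siNT sample for both genes. Nsdhl fell by 0.60 ± 0.08 with siFmr1 (adjusted p = 3.50e-05) and by 0.91 ± 0.08 with siMbnl1 (adjusted p = 1.21e-06). Sc5d fell by 0.89 ± 0.08 with siFmr1 (adjusted p = 5.17e-07) and by 0.72 ± 0.08 with siMbnl1 (adjusted p = 5.50e-06).

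Msmo1 was at 4710.5, 3995 and 4204 normalized counts with siNT, 2454, 2467 and 2762 with siFmr1 and 3174, 3760.04 and 3201 with siMbnl1, a separation of all 3 groups with siFmr1 lowest. Cyp51, the lanosterol demethylase, was at 9011, 9491 and 8662 with siNT, 6061, 6238 and 6345 with siFmr1 and 5794, 6262 and 6401 with siMbnl1, and the knockdown groups overlapped each other. Dhcr7, the reductase that makes cholesterol in the last step, was at 3241, 3267 and 3496 with siNT, 2968, 3134 and 2854 with siFmr1 and 1829.8, 1910.2 and 2196 with siMbnl1. For Dhcr7 the siFmr1 samples lay just below the siNT samples and the siMbnl1 samples far below both. The log2 fold changes with siFmr1 and siMbnl1 were -0.75 and -0.35 for Msmo1 (limma adjusted p = 6.71e-06 and 0.00464), -0.54 and -0.56 for Cyp51 (adjusted p = 2.65e-05 and 3.14e-05), and -0.16 and -0.76 for Dhcr7 (adjusted p = 0.155 and 9.88e-06). The siMbnl1 call of Msmo1 was lost in the fit of only the 2 groups compared (adjusted p = 0.0563). The isomerase Ebp passed in no co-transfection comparison.

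Of the 6 regulators, 3 fell with siFmr1 (Insig1, Insig2 and Stard4) and 4 with siMbnl1 (Insig1, Insig2, Stard4 and Srebf1). Insig1 was at 5204, 6379 and 5383 normalized counts with siNT, 3663, 3947 and 3834 with siFmr1 and 3224, 3246 and 3474 with siMbnl1. Srebf1 was at 5133, 7116 and 7141 with siNT, 8519, 8765 and 6777 with siFmr1 and 3865, 3569 and 4446 with siMbnl1. Insig1 was lower in both knockdown groups, whereas for Srebf1 only the siMbnl1 samples lay below siNT. Insig1 fell by 0.56 ± 0.08 with siFmr1 (adjusted p = 7.55e-05) and by 0.77 ± 0.08 with siMbnl1 (adjusted p = 7.28e-06), and Srebf1 changed by 0.32 ± 0.13 (adjusted p = 0.0742) and -0.70 ± 0.13 (adjusted p = 9.45e-04). Srebf1 was called higher with siFmr1 without siFmr1 pcDNA sample 3 (limma adjusted p = 0.0286) or siNT pcDNA sample 2 (0.0242) or 3 (0.0484). Scap and Srebf2, the escort and the cholesterol-type SREBP gene, passed with neither siRNA when all samples were used. Each passed with siMbnl1 in 1 of 6 fits that left out a sample (0.0260 and 0.0300). Scap also passed with siFmr1 without siNT pcDNA sample 2 (0.0392). The Insig2 call with siFmr1 (log2 -0.26, adjusted p = 0.0113) was lost without siFmr1 pcDNA sample 1 (adjusted p = 0.0621), and in the fit of only the 2 groups compared Insig2 was called with neither siFmr1 (0.0899) nor siMbnl1 (0.0868).

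Of the 6 fatty acid genes, 1 fell with siFmr1 (Elovl6) and 5 with siMbnl1. Elovl6, which elongates palmitate, was at 3759.6, 3746 and 3265 normalized counts with siNT, 1914, 2148 and 2136 with siFmr1 and 2275, 2463 and 2526 with siMbnl1. Scd2 was at 51475, 72476 and 63702 with siNT, 58103, 61127 and 53279.8 with siFmr1 and 29119, 28329 and 34712 with siMbnl1. Elovl6 was low in both knockdown groups, but the siFmr1 samples of Scd2 lay within the siNT range and the siMbnl1 samples lay far below it. Elovl6 fell by 0.80 ± 0.08 with siFmr1 (adjusted p = 1.72e-06) and by 0.57 ± 0.08 with siMbnl1 (adjusted p = 5.72e-05); Scd2 changed by -0.11 ± 0.12 with siFmr1 (adjusted p = 0.517) and by -1.02 ± 0.12 with siMbnl1 (adjusted p = 1.87e-05).

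Lpin1 was at 1399, 1576 and 1659 normalized counts with siNT, 1596, 1513 and 1358 with siFmr1 and 886, 919.96 and 1065 with siMbnl1. Scd1 was at 370.1, 474 and 413 with siNT, 535, 472 and 429 with siFmr1 and 276, 256 and 256 with siMbnl1. For both genes the siMbnl1 samples lay below all others and the siFmr1 and siNT samples overlapped. With siMbnl1, Lpin1 fell by 0.69 ± 0.10 (limma adjusted p = 8.32e-05) and Scd1 by 0.66 ± 0.14 (adjusted p = 0.00195). Fasn was called lower with siMbnl1 as well (log2 -0.37, adjusted p = 0.0438), but its groups overlapped, and the call was lost without siMbnl1 pcDNA sample 1 (adjusted p = 0.115) or 2 (0.148) or without siNT pcDNA sample 2 (0.141) or 3 (0.0981), and in the fit of only the 2 groups compared (0.137). Acaca passed with neither siRNA.

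**Figure D4:**
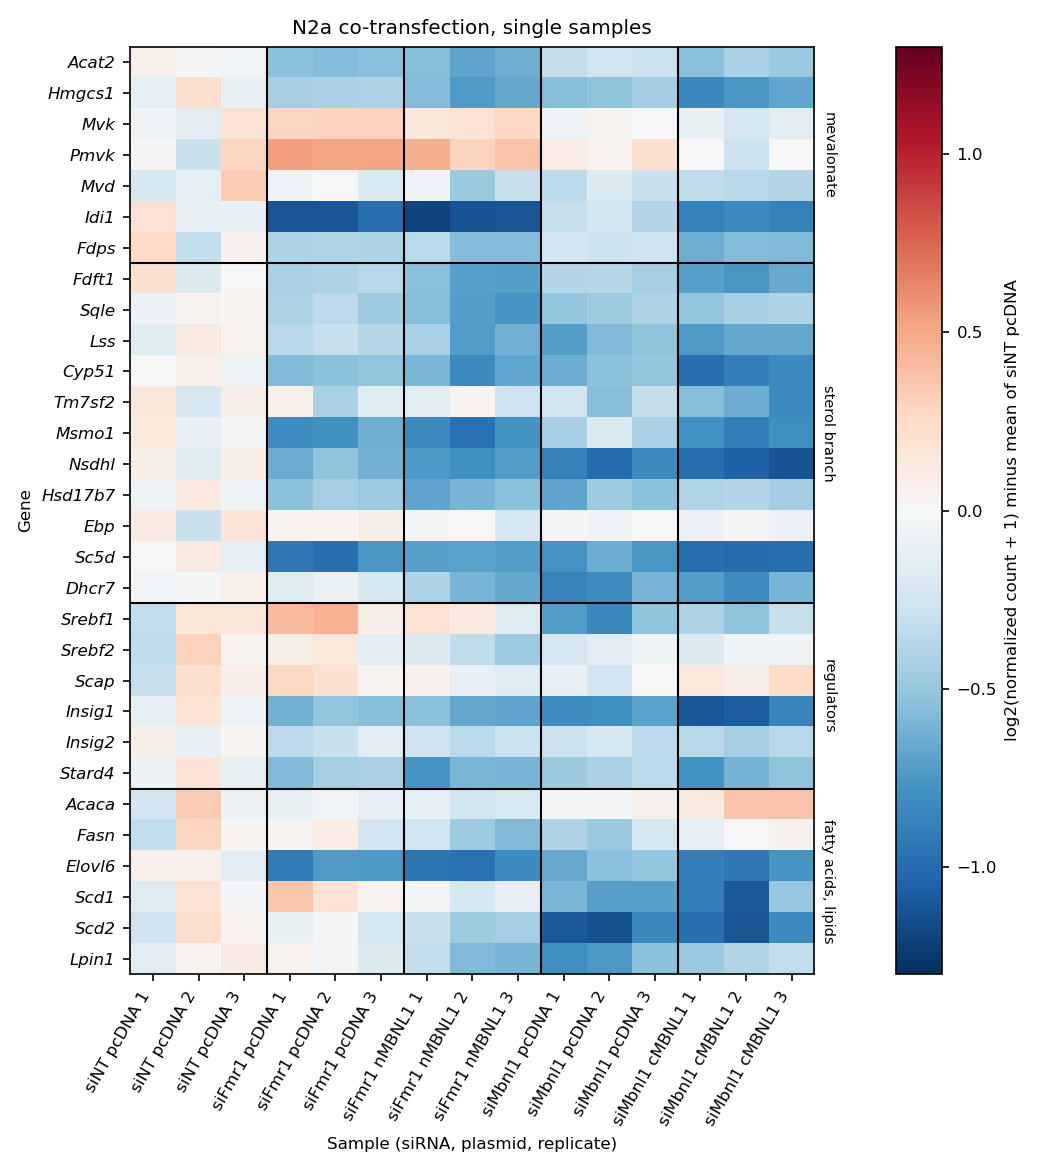
log2(normalized count + 1) of each of the 30 genes in each of the 15 co-transfection samples, relative to the mean of the 3 siNT pcDNA samples, as a colour scale with genes in rows grouped by role. Most sterol genes are below the siNT mean in all other groups, Pmvk and Mvk are above it with siFmr1, and Scd2 and Scd1 are lowest in the siMbnl1 groups.

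The knockdowns were compared with each other directly. These differences do not use the siNT values, but their spread was taken from the fit of all 5 groups, siNT included. Between siFmr1 and siMbnl1 with pcDNA, 13 of the 30 genes differed, 9 higher with siFmr1 and 4 lower, against 35.3% of all genes in either direction, 18.2% higher and 17% lower. Higher with siFmr1 were Srebf1 (1.015 ± 0.13, adjusted p = 3.02e-05), Scd2 (0.91 ± 0.12, adjusted p = 3.54e-05), Scd1 (0.86 ± 0.14, adjusted p = 1.96e-04), Lpin1 (0.64 ± 0.10, adjusted p = 1.17e-04), Dhcr7 (0.60 ± 0.08, adjusted p = 5.81e-05) and Pmvk (0.40 ± 0.11, adjusted p = 0.0105), all as log2 differences. Lower with siFmr1 were Idi1 (-0.76 ± 0.08, adjusted p = 2.19e-06) and Msmo1 (-0.40 ± 0.08, adjusted p = 0.00159). In each of these 8 genes the siFmr1 and siMbnl1 samples did not overlap. Over all genes 27.4% lay above without overlap and 27.5% below. The 8 genes were chosen as called and of largest fold change, so they cannot be set against those shares. Of the remaining calls, Lss was lost without siFmr1 pcDNA sample 1 (adjusted p = 0.0537) or 2 (0.0850) or siMbnl1 pcDNA sample 1 (0.116). Elovl6 was lost without siFmr1 pcDNA sample 1 (0.145) or siMbnl1 pcDNA sample 2 (0.0907) or 3 (0.103), and Mvk without siMbnl1 pcDNA sample 1 (0.0591). In the fit of only these 2 groups, Scap (limma adjusted p = 0.00241), Fasn (0.00334), Insig1 (0.00415) and Mvd (0.0270) were also called higher with siFmr1. Fdps was called lower there (0.0150).

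**Figure D5:**
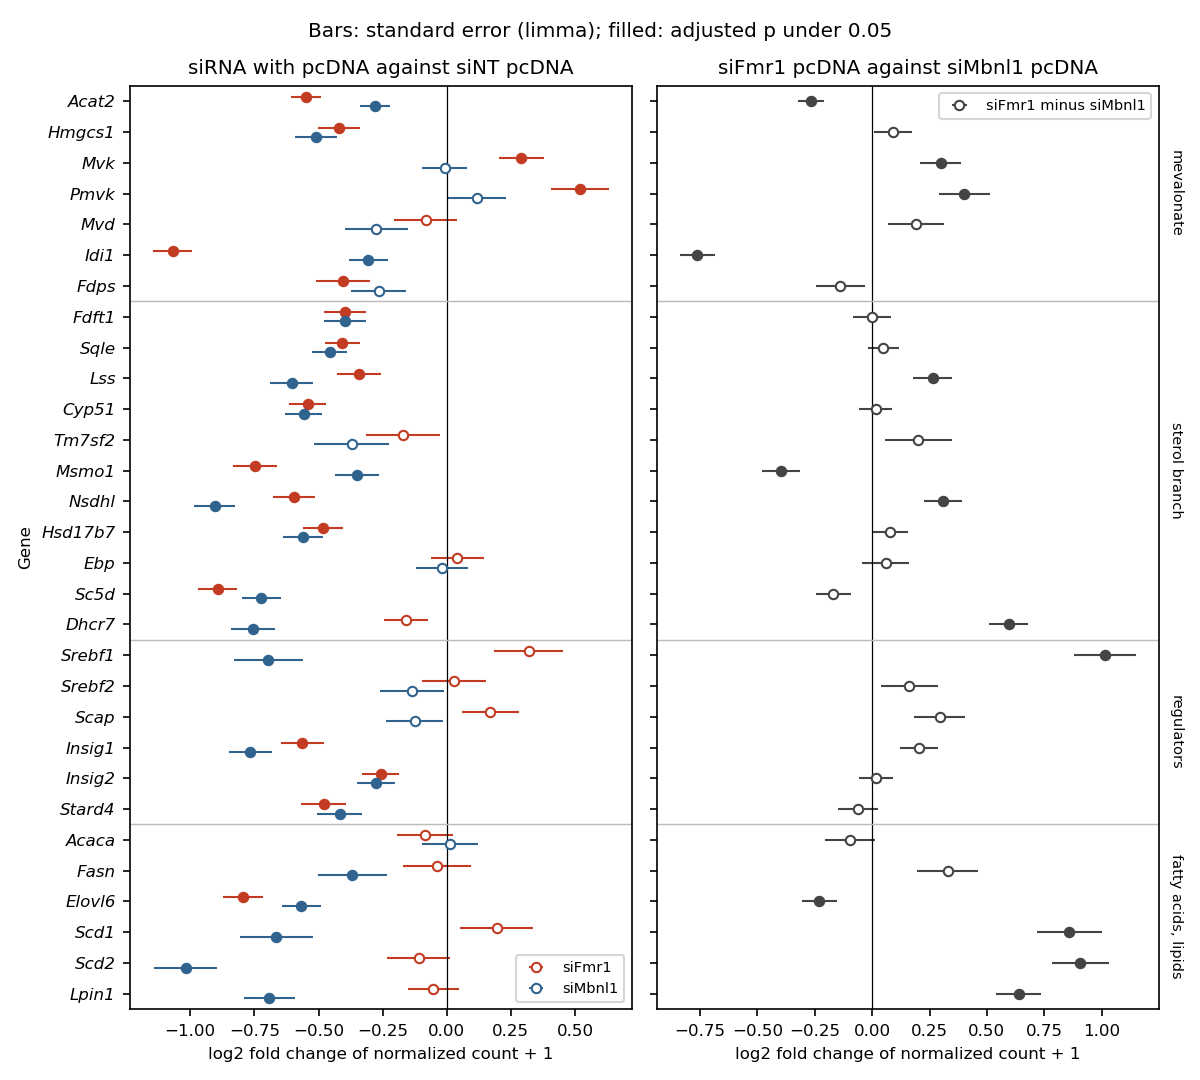
Log2 fold changes of normalized counts + 1, with standard errors, for each of the 30 genes: at left siFmr1 pcDNA and siMbnl1 pcDNA against siNT pcDNA, at right siFmr1 pcDNA against siMbnl1 pcDNA, with filled points for limma adjusted p under 0.05. At left most points lie below 0, and Pmvk and Mvk with siFmr1 are the filled points above it; at right 13 points are filled, 9 of them above 0.

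The plasmid groups asked whether MBNL1 placed in the nucleus or the cytosol moved these genes in cells given siFmr1 or siMbnl1. Every sample of both plasmid groups held more Mbnl1 RNA than every siNT pcDNA sample. Against siFmr1 with pcDNA, siFmr1 with nMBNL1 had 2 of the 30 genes lower and none higher, where 1.76% of all genes passed, 1.13% lower. A fit of only these 2 groups called 11 of the 30, none of them higher, and 2812 of all genes. Fold changes of 28 of the 30 genes lay below 0, with a median of -0.16, against 0.00 over all genes, and 18 of the 30 lay below siFmr1 pcDNA in every sample, against 16.3% of all genes. Dhcr7 was at 2529, 2188 and 2101 normalized counts with nMBNL1, against 2968, 3134 and 2854 with siFmr1 and pcDNA. Lpin1 was at 1237, 1033 and 1011 with nMBNL1, against 1596, 1513 and 1358. Neither gene's groups overlapped, and the fold changes were -0.40 ± 0.08 for Dhcr7 (limma adjusted p = 0.0293) and -0.45 ± 0.10 for Lpin1 (adjusted p = 0.0340). The Lpin1 call was lost without nMBNL1 sample 2 or 3 or siFmr1 pcDNA sample 1 or 2 (adjusted p = 0.155 to 0.177), and the Dhcr7 call without any of these or siFmr1 pcDNA sample 3 (0.0560 to 0.166).

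Against siMbnl1 with pcDNA, siMbnl1 with cMBNL1 had 3 of the 30 genes lower and none higher, where 2.24% of all genes passed, 0.807% lower. A fit of only these 2 groups called 16 of the 30, 5 of them higher, and 2854 of all genes. Idi1 was at 3353, 3499.6 and 3351 normalized counts with cMBNL1, against 5002, 5244 and 4749.9 with siMbnl1 and pcDNA. Msmo1 was at 2491, 2324 and 2469.6 with cMBNL1, against 3174, 3760.04 and 3201, and Cyp51 was at 4573, 4877 and 5094, against 5794, 6262 and 6401. All cMBNL1 samples lay below all pcDNA samples for the 3 genes. The fold changes were -0.55 ± 0.08 for Idi1 (limma adjusted p = 0.00243), -0.47 ± 0.08 for Msmo1 (adjusted p = 0.0120) and -0.34 ± 0.07 for Cyp51 (adjusted p = 0.0248). Idi1 kept its call whichever sample was left out, Msmo1 lost it without cMBNL1 sample 2 (adjusted p = 0.0840) or siMbnl1 pcDNA sample 2 (0.0748), and Cyp51 lost it in each of the 6 such fits (0.0629 to 0.111).

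Set against siNT with pcDNA, siFmr1 with nMBNL1 had 21 of the 30 genes lower and Pmvk higher, against 41.1% of all genes in either direction and 19.9% lower, and siMbnl1 with cMBNL1 had 23 lower and none higher, against 33.7% and 16%. Both groups differed from siNT with pcDNA in the siRNA as well as in the plasmid. Sterol enzymes were 9 of 11 lower with nMBNL1 and 10 of 11 with cMBNL1. Nsdhl was at 933, 905 and 948 normalized counts with nMBNL1 and 796, 755 and 723 with cMBNL1, below all siNT pcDNA samples in both. Its fold changes from siNT were -0.76 ± 0.08 (limma adjusted p = 2.98e-06) and -1.05 ± 0.08 (adjusted p = 2.38e-07). Insig1 was at 3892, 3552 and 3512 with nMBNL1 and 2625, 2684 and 3089 with cMBNL1, with fold changes of -0.63 ± 0.08 and -1.01 ± 0.08 (adjusted p = 2.23e-05 and 4.28e-07).

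With nMBNL1 and with cMBNL1, the log2 fold changes from siNT were -1.14 and -0.86 for Idi1, -0.86 and -0.82 for Msmo1, -0.70 and -0.98 for Sc5d, -0.70 and -0.90 for Cyp51, and -0.92 and -0.86 for Elovl6. Sqle, the squalene epoxidase, was at 4888, 4383 and 4205 normalized counts with nMBNL1 and 5056, 5326 and 5424 with cMBNL1, against 6800.4, 7394 and 7349 with siNT. Fdft1 was at 2594, 2317 and 2307 with nMBNL1 and 2319.7, 2244 and 2416 with cMBNL1, against 4354, 3324 and 3766 with siNT. Every nMBNL1 and cMBNL1 sample of both genes lay below every siNT pcDNA sample. Sqle changed by -0.68 and -0.45 (limma adjusted p = 1.62e-06 and 1.20e-04) and Fdft1 by -0.66 and -0.71 (adjusted p = 1.38e-05 and 1.05e-05). With pcDNA in place of these plasmids, Sqle changed by -0.41 with siFmr1 and -0.46 with siMbnl1, and Fdft1 by -0.40 with each.

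Desaturase Scd2 was at 50504, 44939.6 and 45950.4 normalized counts with nMBNL1 and 31506, 28607 and 34832 with cMBNL1. The log2 fold changes from siNT were -0.40 (limma adjusted p = 0.0161) and -0.97 (adjusted p = 2.10e-05). In this comparison of the nMBNL1 group, calls of Scd2 were lost without nMBNL1 sample 2 (adjusted p = 0.0610) or 3 (0.0504), of Pmvk without nMBNL1 sample 1 (0.0577), of Fasn without nMBNL1 sample 3 (0.0733), and of Srebf2 without nMBNL1 sample 2 or 3 or siNT pcDNA sample 2 or 3 (0.0984 to 0.178). For cMBNL1, calls of Mvd were lost without any cMBNL1 sample or siNT pcDNA sample 3 (0.0650 to 0.179), and of Srebf1 without cMBNL1 sample 1 or 2 or siNT pcDNA sample 2 or 3 (0.0588 to 0.109). All 6 of these calls were also lost in the fits of only the 2 groups compared (adjusted p = 0.102 for Scd2, 0.0770 for Pmvk, 0.0741 for Fasn and 0.157 for Srebf2 with nMBNL1, 0.106 for Mvd and 0.0725 for Srebf1 with cMBNL1).

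A further list of 37 genes of uptake, transport, esterification, sterol efflux and lipogenic control was examined beside the 30. In cortex, hippocampus, cerebellum, liver and the first N2a experiment none of them passed (edgeR), and 8, 8, 4, 5 and 0 had an unadjusted p under 0.05, against 21%, 12.5%, 8.72%, 11.4% and 0.386% of all genes. In muscle 1 of 35 tested genes passed, Aacs, the acetoacetyl-CoA synthetase that feeds ketone bodies into lipid synthesis (1.15 ± 0.22, adjusted p = 0.0283), against 4.04% of all genes. In testis 3 of 37 passed, against 4.27%, all lower: Mid1ip1, an activator of acetyl-CoA carboxylase (-0.57), the oxysterol receptor gene Nr1h2 (-0.34) and the lipoprotein receptor gene Lrp8 (-0.33). With siFmr1 and pcDNA 5 of 37 rose and 12 fell, against 19.5% and 17.5% of all genes, among them the lipoprotein receptor gene Vldlr (1.29), the cholesterol-esterifying Soat1 (-0.70) and the lysosomal sterol carrier Npc2 (-0.62). With siMbnl1 and pcDNA 10 rose and 10 fell, against 17% and 15.8%, among them the desaturase Fads2 (-0.87), the mitochondrial carboxylase Acacb (0.78) and Lrp8 (-0.64). Against its own siRNA with pcDNA, neither plasmid gave a call in the list (limma, 7 and 6 at an unadjusted p under 0.05, against 17.9% and 19.4% of all genes).

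Skipped exons of the 30 genes were read from the authors' deposited splicing tables, calling an exon at a false discovery rate (FDR) under 0.05 and a difference in inclusion, the share of transcripts that hold the exon, of at least 0.1. None was called among 9 events of the 30 genes in cerebellum (0.146% of all events there were), 10 in cortex (0.989%), 16 in hippocampus (0.233%), 40 in liver (1.19%) and 44 in testis (0.69%). The authors' deposited muscle table called 1 of 25 events, against 1.36% of all events there. It is a 24-base exon of Acaca (chr11:84290288-84290311, mm10), at a mean inclusion of 0.716 and 0.155 in the 2 sample sets, on a mean of 8 and 4.33 reads (FDR = 0.0491). The authors' deposited table of the first N2a experiment called 1 of 84 events, against 0.825% of all events: a 216-base exon of Fdps (chr3:89100921-89101136), at an inclusion of 0.103, 0.017 and 0.035 in the set of 3 samples, the number of siFmr1, and 0.272 and 0.099 in the set of 2, that of siNT (FDR = 7.79e-05). The values of the sets overlapped.

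The 4 co-transfection splicing tables, lettered A to D in the order of their deposited numbers, do not name their sample sets, so no direction is given. In the authors' deposited tables, 3 of 162, 1 of 180, 1 of 181 and 2 of 204 events of the 30 genes were called in A, B, C and D, against 2.11%, 2.36%, 1.45% and 2.35% of all events. A 57-base exon of Hsd17b7 (chr1:169959423-169959479) was called in A and D, at mean inclusions of 0.832 and 0.943 (FDR = 0.00292) and of 0.738 and 0.943 (FDR = 5.82e-09); these tables share the samples of 1 set. In the authors' deposited table C a 91-base exon of Dhcr7 (chr7:143840433-143840523) was at 0.824 and 0.948 (FDR = 0.0349), and in B an exon of Lpin1 (chr12:16584508-16584651) was at 0.0467 and 0.235 (FDR = 0.0187). The other calls were exons of Tm7sf2, at chr19:6064079-6064198 in A and D and at chr19:6067123-6067319 in A. In each of the 4 tables the share called among events of the 30 genes was below that among all events.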

How the data were processed

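The sample titles gave the groups and replicate numbers. Except for the co-transfection experiment, the deposited gene tables held whole read counts, which the authors made from aligned reads; the submitters' processing notes name CASAVA, FastQC 0.11.8, Trimmomatic 0.39, Bowtie2 2.3.5, STAR 2.6.1, RSEM 1.3.1 and DESeq2 1.16.1 and the builds GRCm38 and mm10, without saying which step each served. The same tables held TPM computed by the authors, and log2 fold changes and adjusted p-values of the authors' own comparisons, as deposited. The co-transfection table held a signal that the authors normalized from gene counts by a method not given in the sources used here; whole reads could not be recovered from it. Splicing tables in rMATS format held inclusion levels and FDR as deposited. There were 4 columns of values that matched no sample, and these were not used, and 4 rows with non-unique gene names were left out.

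Counts were filtered with filterByExpr, scaled by TMM and tested with edgeR 4.0.16 (glmQLFit and glmQLFTest, two-sided) within each tissue. Normalized counts averaging 1 or more over the 15 co-transfection samples were taken as log2(value + 1) and tested with limma 3.58.1 (eBayes with trend, two-sided), so fold changes of low genes are understated. P-values were adjusted by Benjamini-Hochberg over all genes tested. DESeq2 1.42.0 was an alternative for the counts, in R 4.3.3; both fits were tested on simulated data. Other alternatives were the scaling, the filter, the pseudocount, the samples in the fit, a minimum fold change, the replicate number as a block and leaving out each sample; rescaling of the normalized counts by TMM was chosen after seeing the data.

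The 30 genes, the 37 further genes and the marker lists were chosen with earlier results of these data known. Values in every sample are given for all called genes where at most 8 were called, otherwise for the 8 of largest fold change with a mean of at least 50, and where none was called for the 2 of smallest p. Exceptions are Idi1, Msmo1 and Cyp51 with nMBNL1, and Sc5d and Elovl6 with nMBNL1 and cMBNL1, given as fold changes from siNT alone. For the interaction terms, not all genes of smallest p are named. Mvk, liver Scd1 and muscle Fasn, Scd1 and Insig2 were added after their values were seen. Promoter sequences are from RefSeq, and gene positions from GENCODE M21 (GRCm38). How reads were split between near copies (Scd1 and Scd2, Acat2 and Acat3) or overlapping genes is not given in the sources used here.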

Additional observations from a re-analysis of the deposited data

Results flagged for a closer look

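For 4 of the 30 genes, samples of both genotypes lay apart without overlap in opposite directions in different tissues; none of these differences between tissues was tested. Of the 10353 genes tested in all 6 tissues 17.6% did so, so the 4 of 30 (13.3%) are near the background. Fasn was higher in all muscle KO samples (log2 0.79, edgeR adjusted p = 0.102) and lower in all KO samples of cortex (-0.34), hippocampus (-0.14) and testis (-0.23), so that muscle and cortex differed by 1.13. Scd1 was higher in all muscle KO samples (1.44) and in cerebellum (0.09) and lower in hippocampus (-0.10), a difference of 1.54 between muscle and hippocampus. In muscle, both genes were carried furthest by KO sample 3, and 4 of 8 adipocyte markers were higher in every KO sample too. For these markers no share over all genes is given here. Insig2 was higher in all cortex KO samples (0.10) and lower in all KO samples of liver (-0.64) and muscle (-0.34), a difference of 0.74 between cortex and liver. Fdps was higher in all testis KO samples (0.16) and lower in all KO samples of muscle (-0.17) and cortex (-0.15), a difference of 0.33 between testis and muscle. Of these single-tissue changes only that of Fasn in testis passed the threshold (edgeR adjusted p = 0.0397).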

How the results depend on the processing

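Of the counts of called genes, DESeq2 gave 2 in cortex, 1 in hippocampus and 3 in muscle, and a fit of all 18 brain samples gave 4 in cortex. Leaving out 1 sample gave 0 to 3 in cortex, 0 in hippocampus, 0 to 2 in cerebellum, 0 to 1 in liver, 0 to 1 in muscle, 0 to 4 in testis and 0 to 2 for the interaction of cortex and cerebellum. With a minimum absolute log2 fold change of 1 the co-transfection counts were 1 for siFmr1, 1 for siMbnl1, 1 for siFmr1 with nMBNL1 and 2 for siMbnl1 with cMBNL1 (each against siNT), 0 for each plasmid against its own siRNA with pcDNA, and 1 for siFmr1 against siMbnl1. Fitting only the groups compared gave 11 for nMBNL1 and 16 for cMBNL1 (5 of them higher) against their own siRNA with pcDNA, and leaving out 1 sample gave 0 to 3 and 1 to 2. For skipped exons, dropping the minimum difference gave 30 calls in place of 9, and a minimum of 0.2 gave 2. The causes of these shifts were not tested. Without siNT pcDNA sample 2 the uncalled change of Scd2 with siFmr1 turned from -0.11 to 0.0037 (-0.24 to 0.0037 over the samples left out). No other direction reversed among the called genes and those named with a p. Other uncalled genes of the 30 did reverse, among them Fasn (-0.20 to 0.10) and Mvd (-0.19 to 0.08) with siFmr1 and pcDNA against siNT. The scaling, filter and TMM rescaling alternatives moved no count by over 1.5 times, and of the alternatives' values for the called genes and those named with a p, 1340 kept their side of the threshold, 177 lost a call and 16 gained one. Over all 30 genes and all comparisons, leaving out 1 sample ended 60 calls and gave 35, fitting only the groups compared ended 14 and gave 27, and the minimum fold change ended 96.

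Correlations of same-numbered samples ran from -0.69 to 0.62 in hippocampus and from -0.37 to 0.064 in the other tissues. They were -0.25 and 0.74 in the first N2a experiment and -0.062 to 0.076 in the co-transfection groups. In no comparison of 3 pairs were all above 0.1. So few pairs cannot show whether same-numbered samples were handled together. With the replicate block the count was 0 in muscle (Fdft1 adjusted p = 0.0521), 2 in testis and 1 for nMBNL1 against siFmr1 with pcDNA (Lpin1 adjusted p = 0.0562); other counts stayed within 1.5 times. Depth is unknown for the co-transfection samples, and the first N2a experiment, with 2 control samples, made 0 calls under every alternative.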
